A study of Mus musculus with 16 samples.

Results

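The synaptic vesicle and release machinery was followed in sympathetic ganglia through 38 protein-coding genes. Each deposited table held 56941 genes, 21684 of them protein-coding. The 38 genes were chosen by name, with earlier results of these data known. The genes fall into 11 synaptotagmins, 8 vesicle membrane and coat proteins, and 6 SNAREs and complexins. The others are 3 Rab3 GTPases, 9 active zone and priming proteins, and the synuclein Sncg. The synaptotagmins were grouped under the role of vesicle calcium sensors, but at least Syt4 and Syt13 among them do not bind calcium as Syt1 does. All 38 were found and all 38 had enough reads to be tested in the nerve libraries.

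RNA was sequenced in bulk from explants of superior cervical ganglia (SCG) of wild-type C57BL/6J mouse pups on postnatal days 1 to 4, cultured for about 70 hours. The explants, 8 to 13 in a culture, grew alone (SCG, n = 3 libraries), below an insert with 10000 NIH 3T3 fibroblasts (SCG+MEF, n = 3), or below an insert with 10000 mPSC1 cells (SCG+PSC, n = 4). The mPSC1 line, immortalized murine pancreatic stellate cells, was itself sequenced alone (PSC, n = 3) and after culture with explants (PSC+SCG, n = 3). The cells shared medium without contact, the medium held nerve growth factor, 1 stellate and 1 fibroblast line stand for their cell types, and the explants held glia, macrophages and fibroblasts beside the neurons. The defining markers of sympathetic neurons were present in all 10 nerve libraries, in which none of the 16 noradrenergic and 20 pan-neuronal marker genes was at 0. In the 6 stellate libraries none of 10 stellate line markers was at 0, with Acta2 (smooth muscle actin) at 20889 to 61518 normalized counts. None of these 10 was at 0 in the nerve libraries either. With library totals scaled to 1000000, their sums overlapped, at 11480 to 15040 in stellate and 9804 to 14450 in nerve libraries. Slc18a2 and Dcx, markers of noradrenergic and young neurons, were at 0 in all 6 stellate libraries. In each, 1 to 5 of the 20 pan-neuronal and 5 to 7 of the 16 noradrenergic genes were at 0. On the same scale the pan-neuronal genes summed to 164.5 to 213 in stellate and 5977 to 10420 in nerve libraries. Depth ran from 32013901 to 39197230 reads in the 9 nerve libraries and from 31900689 to 41632381 in the 5 stellate libraries for which whole reads could be recovered. Nothing in the labels ties a library to its own culture or litter, so p-values measure the spread between libraries, which may be technical.

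A nerve terminal stores transmitter in synaptic vesicles and releases it when calcium enters. Synaptotagmins such as Syt1 sense the calcium, and SNARE proteins on the vesicle and on the plasma membrane zip together to fuse them. Complexins clamp and release that complex, Rab3 proteins tether vesicles, and large scaffolds of the active zone hold the release site in place. Sympathetic neurons use this machinery to release noradrenaline, which the vesicular transporter Slc18a2 loads into vesicles, from varicosities along their axons.

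The sequences before the start sites of 3 members are shown to display the letters searched for. A link between these letters and the levels of the members was not tested. The sequences are the 250 bases before the RefSeq start on GRCm38.p6, read 5′ to 3′ on the strand of the gene. They are Syn1 at chrX:20920919-20921168 on the minus strand, Cplx1 at chr5:108550028-108550277 on the minus strand and Sncg at chr14:34374670-34374919 on the minus strand. Capitals mark the left part of the RE1 element (TTCAGCACC, bound by the neuronal repressor REST) and the cyclic AMP response element (TGACGTCA) in Syn1, and the GC box (GGGCGG, on the other strand) in Cplx1 and Sncg.
Syn1: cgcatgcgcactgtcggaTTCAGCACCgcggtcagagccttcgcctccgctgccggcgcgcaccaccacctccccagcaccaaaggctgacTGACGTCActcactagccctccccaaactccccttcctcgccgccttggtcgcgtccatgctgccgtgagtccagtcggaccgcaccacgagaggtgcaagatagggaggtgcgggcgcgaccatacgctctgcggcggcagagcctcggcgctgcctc
Cplx1: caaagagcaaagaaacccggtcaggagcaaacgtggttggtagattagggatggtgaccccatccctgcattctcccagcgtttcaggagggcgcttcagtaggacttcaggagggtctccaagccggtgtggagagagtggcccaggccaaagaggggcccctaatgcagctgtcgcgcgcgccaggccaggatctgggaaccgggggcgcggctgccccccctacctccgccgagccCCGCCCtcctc
Sncg: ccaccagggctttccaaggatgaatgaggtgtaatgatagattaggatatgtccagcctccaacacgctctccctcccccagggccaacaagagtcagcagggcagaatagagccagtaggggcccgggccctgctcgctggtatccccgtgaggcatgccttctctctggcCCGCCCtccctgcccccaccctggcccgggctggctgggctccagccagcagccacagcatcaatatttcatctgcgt

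Such windows were at hand for 29 of the 38 members, and motifs were searched on both strands in any window of a gene. The 27025 genes set beside them were not filtered to protein-coding genes, as the members were. The number of windows of a gene was not matched either, so the 2 sets differ in more than their role in release. A GC box lay in 22 of the 29 members (75.9%) and in 35.4% of 27025 genes, and the median GC content was 61.2% in the members and 52% in all genes. The TATA box (TATAAA) lay in 2 of 29, Rab3b and Sv2b, which is 6.9% beside 14.3% of all genes. The left part of RE1 lay in Syn1 alone of the 29, 232 bases before the start, and in 0.348% of all genes. The cyclic AMP response element also lay in Syn1 alone, 159 bases before the start, beside 1.77% of all genes.

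In the nerve libraries 27 members had a mean of at least 1000 normalized counts, 34 had at least 100, and Syt13, Synpr, Cadps2 and Sv2b had less. In normalized counts scaled to a library total of 1000000 (CPM) and divided by kb of exon, so that genes can be compared, Syt4 led in SCG with 210 ± 65.9 (SD, n = 3). It was followed by Vamp2 at 106 ± 19.6, Cplx2 at 95.8 ± 82.5, Syp at 76.6 ± 32.2, Syt11 at 71.6 ± 14.9, Syn2 at 65.8 ± 33.6 and Sncg at 58.2 ± 24.3. From Vamp2 down, each of these differed from its neighbour in the order by less than their SDs. The low end held Synpr at 0.296 ± 0.131, Cadps2 at 0.188 ± 0.0556, Sv2b at 0.104 ± 0.0101 and Syt13 at 0.0785 ± 0.0692. Among the calcium sensors on this scale, Syt1, the fast sensor of many neurons, stood at 34.1 ± 22.3, and the alternative sensors Syt9 at 28.4 ± 13.1, Syt7 at 11.7 ± 2.94 and Syt2 at 8.92 ± 2.59. Bsn shared 0.353% of its exon bases with another gene on its strand and the other members shared none, so that few reads could have been split between genes.

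Within each library some relatives kept a narrow ratio. On the per kb scale Vamp2 exceeded Vamp1, the other vesicle SNARE of the synaptobrevin pair, by 17.2 to 23.2 times over the 10 nerve libraries. Unc13a exceeded Unc13b by 1.55 to 2.88 times, and Sv2c exceeded Sv2a by 3.13 to 4.72 times. The ratio of Cplx2 to Cplx1 was wider, from 1.42 to 4.06, and that of Syt1 to Syt2 ran from 2.29 to 6.16. Both of these wider ratios were highest in SCG replicate 3 and SCG+MEF replicate 3 and not in SCG+PSC replicate 3, where they were 1.81 and 3.24.

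Whether culture beside stellate cells or fibroblasts moved these genes was tested with limma on log2(normalized count + 1) over all 23491 genes tested. A call needed a p of 0.05 or less after Benjamini-Hochberg adjustment and a change of 0.5 or more on the log2 scale, up or down. Replicates 1 to 3 of each group entered the test, and SCG+PSC replicate 4 entered an alternative. In SCG+PSC against SCG 0 of the 38 members were called, where 0.0128% of all genes were. The same number, 0 of 38, was called in SCG+MEF against SCG (0.0128% of all genes) and in SCG+PSC against SCG+MEF (0% of all genes), and limma's smallest adjusted p among the members was 1 in each. At an unadjusted p under 0.05 there were 1 (Synpr), 0 and 0 members in the 3 comparisons, beside 4.01%, 3% and 3.21% of all genes. On recovered reads edgeR called 0 members in each, beside 0.0128%, 0.0128% and 0% of all genes, and DESeq2 called 0 members in each, beside 0.26%, 0.0937% and 0.0766%.

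The replicate numbers carried much of the spread, so the fit with the replicate number as a block had narrower intervals. It called 1.33% of all genes in SCG+PSC against SCG, 0.162% in SCG+MEF against SCG and 0.788% in SCG+PSC against SCG+MEF, and again 0 of the 38 members in each. Its smallest limma adjusted p among the members was 0.29 for Syt6, 0.364 for Rab3b and 0.0805 for Syt1 in the 3 comparisons in that order. At an unadjusted p under 0.05 there were 4, 8 and 11 of the 38 members, beside 10.7%, 7.54% and 11.7% of all genes, so the count was near the share of all genes in the first comparison and above it in the others. The 95% interval of a member reached a median of 0.673 to either side on the log2 scale without the block and 0.245 with it. With the block, the interval lay within ±0.5 for 31 members in SCG+PSC against SCG, for 28 in SCG+MEF against SCG and for 25 in SCG+PSC against SCG+MEF. For those members a change of the size of the threshold lay outside the interval, under the block. In a bulk sample a lower level can come from fewer cells of a type or from less RNA per cell, and these cannot be told apart.

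**Figure D1:**
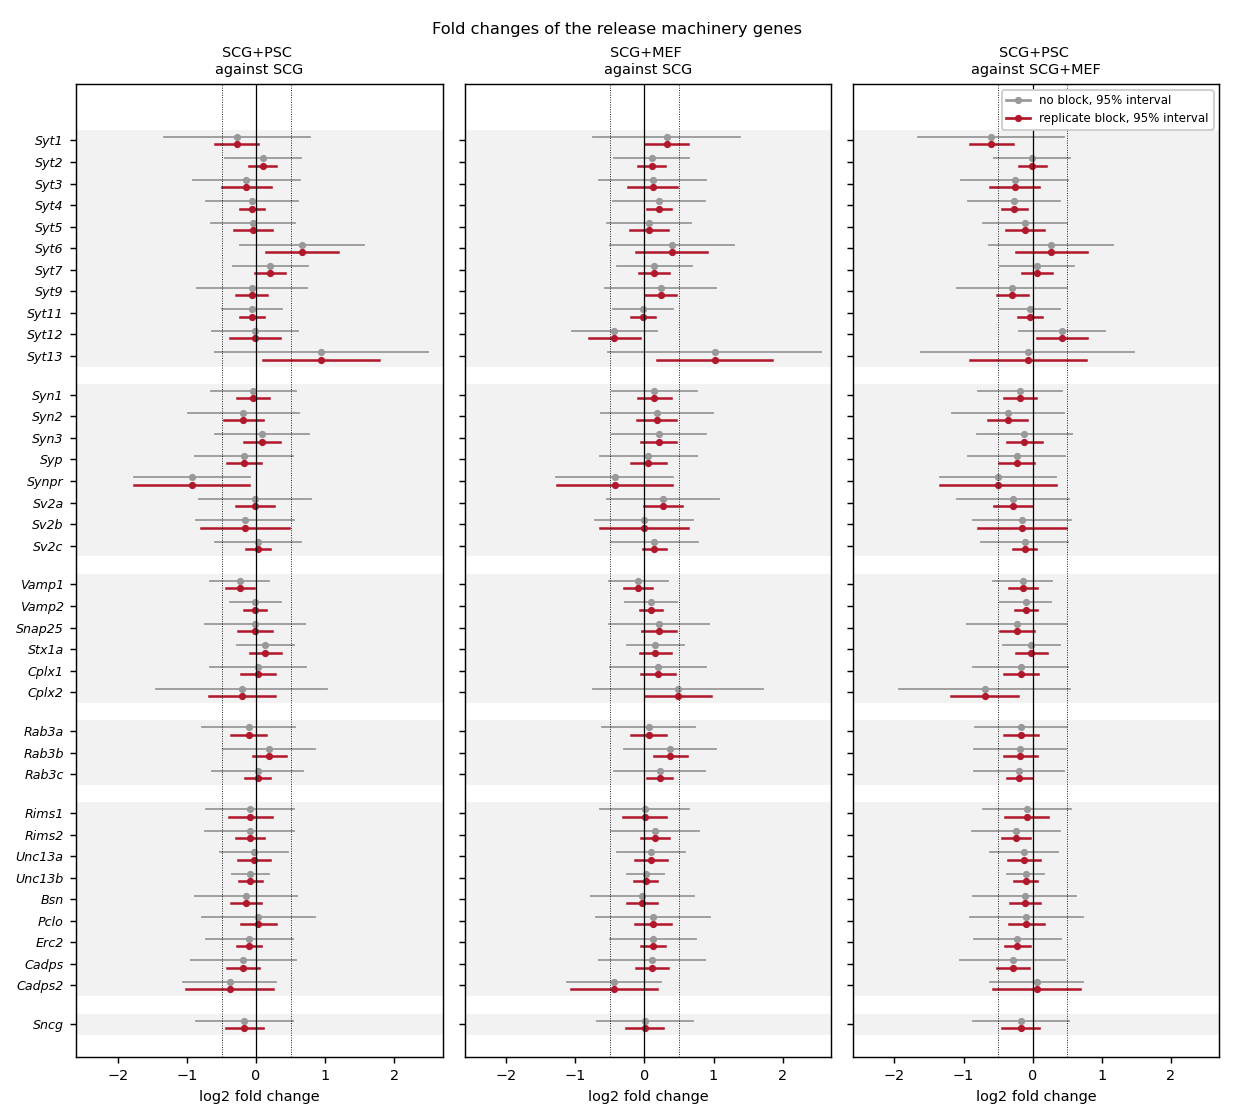
Log2 fold change of each member, grouped by role, in 3 comparisons of nerve libraries, with 95% intervals from limma without a block (grey) and with the replicate number as a block (red). Dotted lines mark ±0.5; most red intervals lie within them, and none of the 38 members was called in any panel.

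Syt4, a synaptotagmin that does not bind calcium as Syt1 does, had the highest mean count of its role. Its normalized counts were 30444, 19690 and 39390 in SCG replicates 1 to 3, 31245, 25454 and 45925 in SCG+MEF, and 28916, 20179, 35895 and 35076 in SCG+PSC replicates 1 to 4. Replicate 2 was the lowest and replicate 3 the highest in each group, and the 3 groups overlapped. The log2 fold change was -0.06 ± 0.30 (SE; 95% interval -0.72 to 0.60) in SCG+PSC against SCG and -0.27 ± 0.30 in SCG+PSC against SCG+MEF, with limma adjusted p = 1 in both.

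Syn2, a synapsin that binds vesicles to the cytoskeleton, led the membrane and coat proteins. It had 18777, 11231 and 33314 normalized counts in SCG, 21298, 15886 and 30090 in SCG+MEF, and 18080, 12746, 20873 and 20236 in SCG+PSC. The groups overlapped, while replicate 3 of SCG and replicates 1 and 3 of SCG+MEF stood above all 4 SCG+PSC libraries. Its log2 fold change was -0.18 ± 0.36 in SCG+PSC against SCG and -0.36 ± 0.36 in SCG+PSC against SCG+MEF.

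Cplx2, a complexin gene at chr13:54519154-54531730 on GRCm39, led the SNAREs and complexins by mean count. It had 10730, 5684 and 32941 normalized counts in SCG, 16177, 11443 and 29918 in SCG+MEF, and 10513, 8340, 14896 and 13616 in SCG+PSC. Replicate 3 of SCG and of SCG+MEF stood above every other library, and the groups overlapped. Its log2 fold change in SCG+PSC against SCG was -0.21 ± 0.56, and 0.49 ± 0.41 without SCG replicate 3.

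Vamp2, the vesicle SNARE synaptobrevin, was among the steadiest members. Its values were 12157, 8652 and 12642 in SCG, 12397, 10322 and 12605 in SCG+MEF, and 11779, 9257, 11953 and 11016 in SCG+PSC. The groups overlapped, with a log2 fold change in SCG+PSC against SCG of -0.01 ± 0.17 and a 95% interval of -0.38 to 0.36.

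Rab3c, of the Rab3 family that marks vesicles for tethering, had 6031, 4208 and 8567 normalized counts in SCG, 6150, 5576 and 10021 in SCG+MEF, and 6053, 4714, 8008 and 8285 in SCG+PSC. Cadps, which primes dense-core vesicles, had 6715, 4172 and 11216 in SCG, 7278, 5380 and 10053 in SCG+MEF, and 6035, 4586, 7748 and 7646 in SCG+PSC. Both genes were lowest in replicate 2 of every group, and their groups overlapped. The log2 fold changes in SCG+PSC against SCG were 0.02 ± 0.30 for Rab3c and -0.18 ± 0.34 for Cadps.

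Sncg, a synuclein abundant in peripheral neurons, had 9763, 5359 and 13713 normalized counts in SCG, 9089, 7445 and 10704 in SCG+MEF, and 8476, 5870, 10145 and 9639 in SCG+PSC. The same order of replicates appeared again, and the log2 fold change in SCG+PSC against SCG was -0.17 ± 0.31.

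The remaining members had mean counts over the nerve libraries from 28.8 for Synpr to 20109 for Syt11. Over all 38 members the median log2 fold change was -0.06 in SCG+PSC against SCG (range -0.93 to 0.94), 0.12 in SCG+MEF against SCG (-0.44 to 1.01) and -0.16 in SCG+PSC against SCG+MEF (-0.69 to 0.42). Medians over all genes tested were 0.002, 0.02 and -0.01. Each member median changed sign when 1 library was left out, to 0.19 without SCG replicate 3 or 0.12 without SCG+PSC replicate 2 in the first, to -0.14 without SCG replicate 2 or -0.04 without SCG+MEF replicate 3 in the second, and to 0.02 without SCG+PSC replicate 2 in the last. These comparisons share libraries, SCG in the first 2 and SCG+PSC in the first and last.

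**Figure D2:**
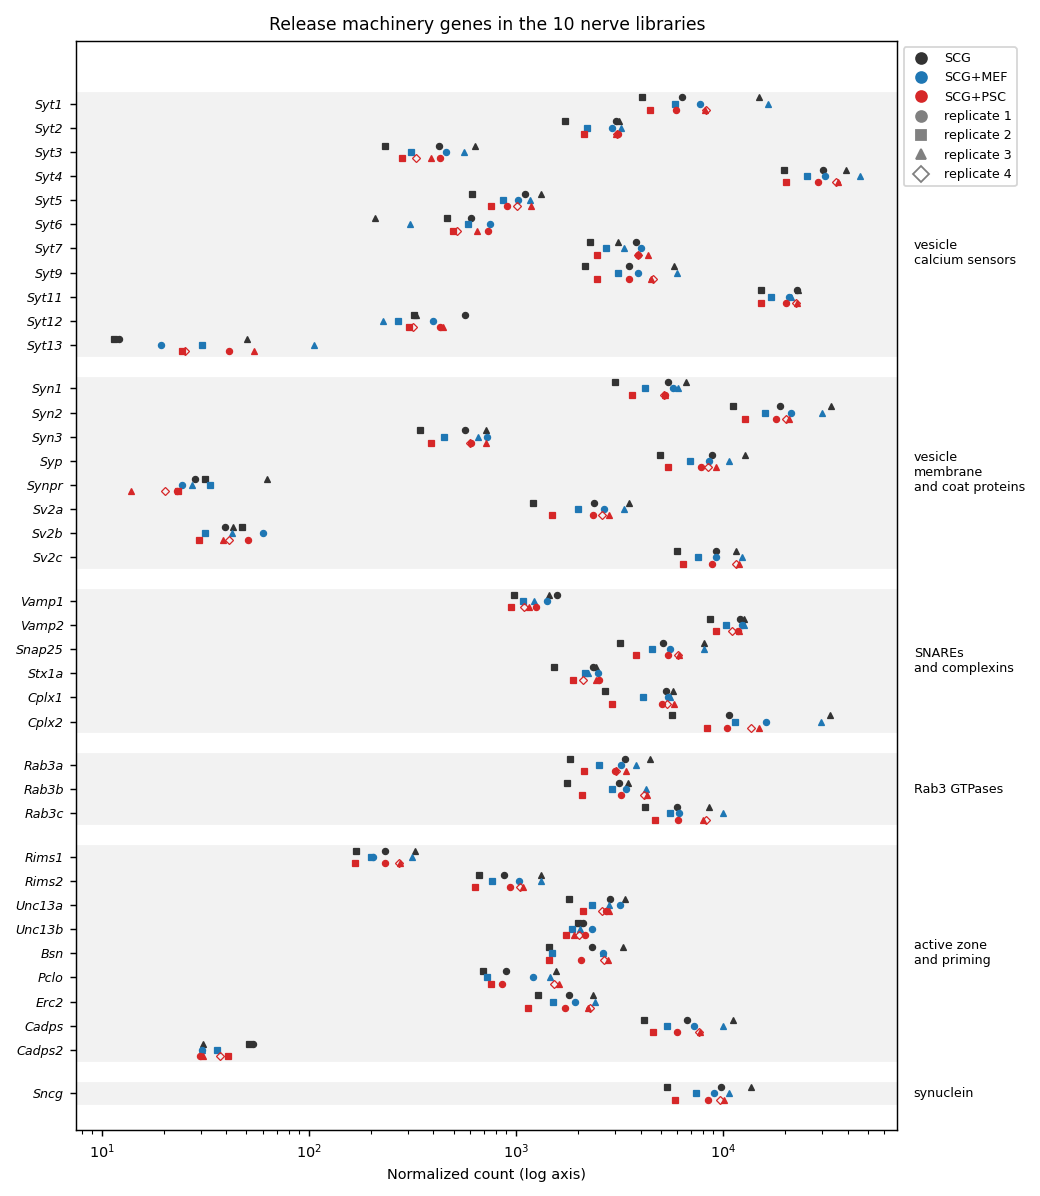
Normalized count (log axis) of each member, grouped by role, in the 10 nerve libraries, with colour for the group and marker shape for the replicate number; the open diamond is SCG+PSC replicate 4. Squares, replicate 2, lie at the left of their colour for most members, and the SCG+PSC points lie apart from both other groups for Synpr alone.

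The replicate number ordered the members far more than the culture did. Replicate 2 was the lowest of replicates 1 to 3 in all 3 groups for 32 of 38 members (84.2%), against 13.8% of all genes tested. Replicate 3 was the highest in all 3 groups for 23 of 38 (60.5%), against 12.8% of all genes. Of a member's squared deviation over the 9 libraries, the replicate number held a median of 83.5% and the culture 6.5%, where the medians over all genes were 46.6% and 16.4%. Among genes with a mean of at least 100 normalized counts the shares were 84.2% and 6.25% for 34 members, and 60.8% and 13.8% for 12802 genes.

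Pan-neuronal markers followed the same order. The mean log2 level of the 20 pan-neuronal genes, which include tubulin and neurofilament genes, was 13.13, 12.41 and 13.20 in SCG, 13.15, 12.81 and 13.16 in SCG+MEF, and 13.05, 12.50, 13.24 and 13.21 in SCG+PSC. The mean of the 38 members was 10.92, 10.32 and 11.27 in SCG, 10.99, 10.66 and 11.22 in SCG+MEF, and 10.89, 10.43, 11.06 and 10.98 in SCG+PSC. Both were lowest in replicate 2 of every group. When the pan-neuronal mean of the library was subtracted, the median SD of the members over 9 libraries fell from 0.408 to 0.194 on the log2 scale, while that of all genes went from 0.362 to 0.476.

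Proliferation markers also differed between replicates and cultures. Their mean log2 level over 15 genes was 8.62, 10.52 and 9.40 in SCG, 9.004, 10.65 and 9.53 in SCG+MEF, and 10.28, 11.08, 10.44 and 10.51 in SCG+PSC, so replicate 2 was the highest in each group. Without the block limma called 0 of the 15 in each comparison. With the block, 14 of the 15 were called higher in SCG+PSC against SCG, led by Mki67 (log2 fold change 1.34), Cenpf (1.29), Aurkb (1.29) and Bub1 (1.26). Against SCG+MEF 9 of 15 were called higher, led by Mki67 (1.08), Cdk1 (1.05), Ccnb1 (0.99) and Mcm5 (0.94). The same fits called 0 of the 38 members. The summed level of 12 fibroblast markers ranged from 10260 to 15260 CPM in SCG, from 11470 to 15060 in SCG+MEF and from 11960 to 14750 in SCG+PSC, and was highest in replicate 2 of each. The mean log2 level of the same 12 genes was highest in replicate 2 in SCG only. It was 11.89, 12.23 and 11.96 in SCG, 12.01, 12.15 and 12.33 in SCG+MEF, and 12.20, 12.05, 12.34 and 12.32 in SCG+PSC. The part of these cells in the members' levels was not tested.

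**Figure D3:**
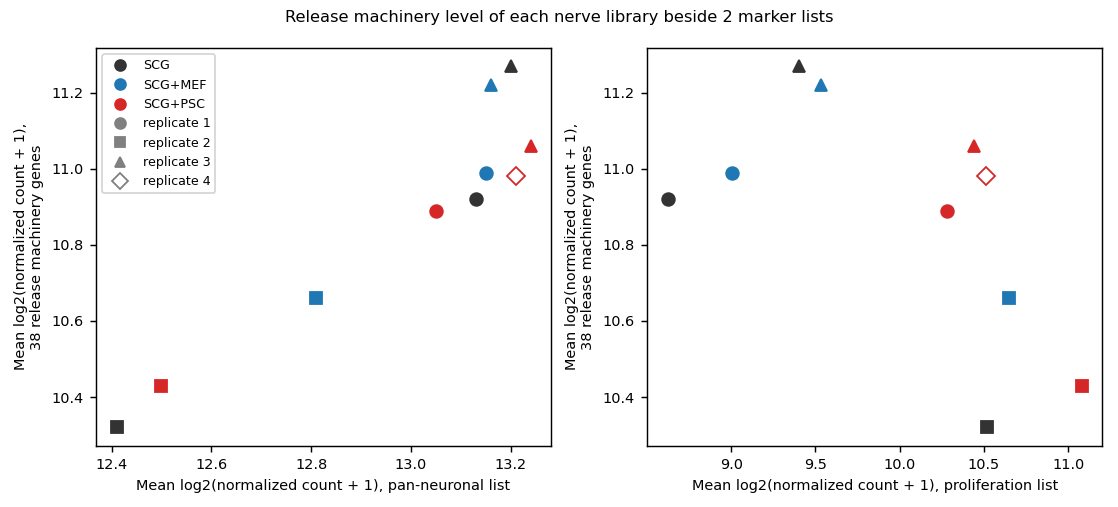
Mean log2(normalized count + 1) of the 38 members (vertical axis) against that of the pan-neuronal list (left) and the proliferation list (right), 1 point per nerve library. Replicate 2 libraries (squares) are low for the members and for the pan-neuronal genes, and the 4 SCG+PSC libraries have 10.28 or more on the proliferation axis while their member means run from 10.43 to 11.06.

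Synpr, Syt6, Syt13, Unc13b, Syt1, Vamp2 and, in stellate cells, Rims2 were singled out after their values were seen. Synpr, synaptoporin, a vesicle protein related to synaptophysin, was the only member whose groups did not overlap. It had 28.3, 31.4 and 62.5 normalized counts in SCG, 24.3, 33.3 and 27.4 in SCG+MEF, and 23.0, 23.3, 13.9 and 20.2 in SCG+PSC, so every SCG+PSC library lay below every SCG and every SCG+MEF library. Groups that did not overlap made up 7.66% of all genes in SCG+PSC against SCG, 7.36% against SCG+MEF and 6.63% in SCG+MEF against SCG, where no member had them; 1 of 38 members lies below those shares. Its log2 fold change was -0.93 ± 0.38 in SCG+PSC against SCG, with a limma adjusted p of 1 without the block and 0.394 with it. It was -0.58 ± 0.37 without SCG replicate 3 and -0.70 ± 0.40 without SCG+PSC replicate 3, with adjusted p = 1 in both, and all its counts were under 100.

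Syt6 ran against the order in SCG and SCG+MEF. It had 605, 466 and 209 normalized counts in SCG, 747, 586 and 309 in SCG+MEF, and 736, 495, 647 and 519 in SCG+PSC, so replicate 3 was the lowest in the first 2 groups and not in SCG+PSC. Its log2 fold change of 0.66 ± 0.40 in SCG+PSC against SCG had a limma adjusted p of 1 without the block and 0.29 with it, and it was 0.22 ± 0.34 without SCG replicate 3. Syt13, a synaptotagmin without calcium binding, had 12.1, 11.4 and 50.2 normalized counts in SCG, 19.3, 30.7 and 106 in SCG+MEF, and 41.2, 24.3, 54.5 and 25.2 in SCG+PSC. The groups overlapped, and its fold changes of 0.94 ± 0.69 in SCG+PSC and 1.01 ± 0.69 in SCG+MEF against SCG were not called. Without SCG replicate 3 they were 1.61 ± 0.65 and 1.68 ± 0.65, and without SCG+MEF replicate 3 the second was 0.32 ± 0.65, and none of these was called. Unc13b, a priming factor of the Munc13 family, was the steadiest member, between 1749 and 2342 in all 10 libraries.

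Cplx2 and Syt1 had the widest ranges among the abundant members. Syt1 had 6337, 4086 and 14879 in SCG, 7744, 5870 and 16492 in SCG+MEF, and 5924, 4435, 8203 and 8293 in SCG+PSC. Replicate 3 of SCG and of SCG+MEF stood above every other library for both genes, and replicates 3 and 4 of SCG+PSC did not. The pan-neuronal means of the 3 replicate 3 libraries, 13.20, 13.16 and 13.24 in SCG, SCG+MEF and SCG+PSC, differed by less than 0.1 on the log2 scale. The noradrenergic means of the same libraries were 12.88, 12.81 and 12.51, lowest in SCG+PSC. The part of neuronal content in the 2 genes was not tested.

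Taken number by number, SCG+PSC lay below SCG+MEF for most members. The difference was negative in all 3 numbered pairs for 23 of 38 members, beside 17.4% of all genes tested. The median member difference was -0.11, -0.24 and -0.10 on the log2 scale in pairs 1, 2 and 3. By their mean over the 3 pairs, the largest differences were those of Cplx2, at -0.62, -0.46 and -1.01, and of Syt1, at -0.39, -0.40 and -1.01. With the block these gave log2 fold changes of -0.69 ± 0.22 with a limma adjusted p of 0.209 for Cplx2 and -0.60 ± 0.14 with an adjusted p of 0.0805 for Syt1, and neither was called.

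The pan-neuronal mean moved with these differences in pairs 1 and 2, where SCG+PSC minus SCG+MEF was -0.10 and -0.31, and not in pair 3, where it was 0.08. After that mean was subtracted from each library, 9 of the 38 members were lower in all 3 pairs, beside 6.33% of all genes, and 5 were higher, beside 22%. The members thus lay above the share of all genes for lower values and below it for higher values. The subtraction itself moved the shares of all genes, which were 17.4% lower and 15.6% higher before it. The part of that move in the difference between the members and all genes was not tested. In SCG+MEF against SCG, 11 of 38 members were higher in all 3 pairs, beside 15.2% of all genes, and the median member difference was 0.09, 0.37 and -0.06 in pairs 1 to 3. In SCG+PSC against SCG, 6 of 38 were lower in all 3 pairs, beside 14.8% of all genes, and the median difference was -0.05, 0.12 and -0.16.

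**Figure D4:**
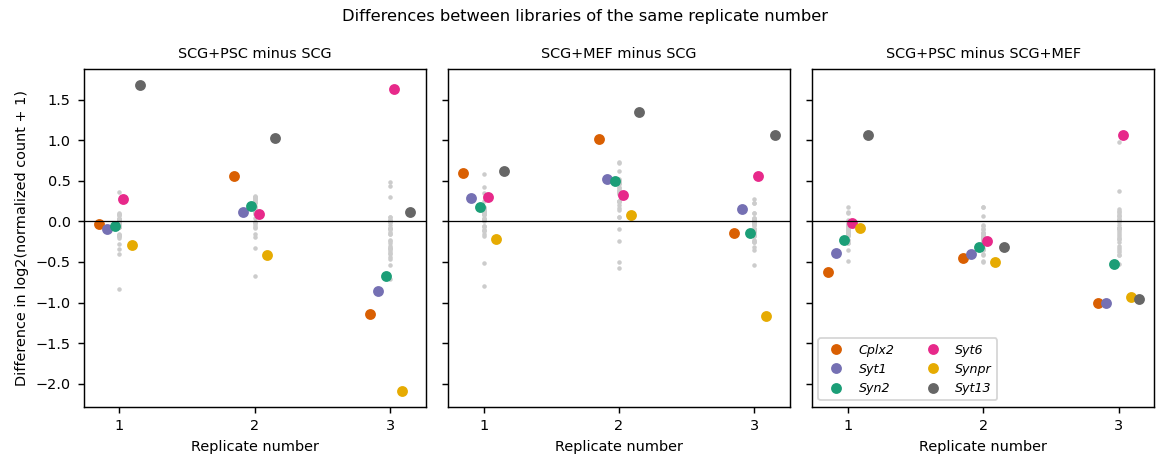
Difference in log2(normalized count + 1) between libraries of the same replicate number (horizontal axis), for each of the 38 members, with 6 members coloured and the rest in grey. In SCG+PSC minus SCG, Cplx2 and Syt1 lie at -1.15 and -0.86 in pair 3 and at -0.03 and -0.10 in pair 1, while Syt13 lies at 1.68 in pair 1 and 0.12 in pair 3.

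Other genes of release and recycling were read from 6 lists. Without the block 0 genes were called in any list and comparison of the nerve libraries. With the block 0.788% of all genes were called in SCG+PSC against SCG+MEF. That comparison held the only call among these 6 lists. It was Sytl2, a synaptotagmin-like Rab27 effector, which rose, 1 of 15 in the list of other synaptotagmins and calcium sensors. Its normalized counts were 453, 742 and 386 in SCG, 363, 545 and 359 in SCG+MEF, and 548, 847, 476 and 591 in SCG+PSC, and those of SCG+PSC overlapped SCG+MEF. Median log2 fold changes of the lists in SCG+PSC against SCG were lowest for the other synaptotagmins and calcium sensors, at -0.12. They were highest for the vesicle transporters and other vesicle membrane proteins, at 0.03. The rest were -0.02 for 27 other SNAREs and their regulators, -0.07 for 24 other active zone genes, 0.01 for 26 endocytosis genes and -0.08 for 16 dense-core vesicle genes. In SCG+PSC against SCG+MEF those medians were -0.24, 0.05, -0.10, -0.16, -0.06 and -0.19 in the same order.

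Slc18a2, the vesicular monoamine transporter, had 1963, 1481 and 3316 normalized counts in SCG, 1987, 2113 and 3880 in SCG+MEF, and 2272, 1759, 3222 and 2914 in SCG+PSC. Its values overlapped between all groups and it was not called.

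Levels in stellate cells were set beside those of ganglia without a test, since the tables were normalized apart. In PSC 14 members had a mean of at least 100 normalized counts, 8 had 10 to 100 and 16 had less than 10. In CPM per kb of exon, the highest in PSC were Vamp2 at 16.8 ± 3.43, Stx1a at 6.51 ± 1.51, Syt11 at 5.91 ± 0.786 and Cplx2 at 5.54 ± 0.414 (SD, n = 3). In CPM, 37 of the 38 members were higher in SCG. The SNARE partners of Vamp2 differed: in CPM, Stx1a was 3.65 times as high in SCG as in PSC, whereas Snap25 had 0, 0 and 1.93 normalized counts in PSC and 0 in all 3 PSC+SCG libraries. Pclo, the active zone scaffold piccolo, had no count in 3 PSC libraries, which allows up to 0.0268 CPM over 111961250 recovered reads, and was at least 1140-fold higher in SCG at 30.4 CPM. That limit covers counting error only.

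Syt13 was the exception. It had 784, 581 and 402 normalized counts in PSC and 812, 812 and 444 in PSC+SCG, and in CPM it was 23.2 times as high in PSC as in SCG, 16.4 ± 5.72 beside 0.707 ± 0.623. Every PSC library lay above every SCG library.

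**Figure D5:**
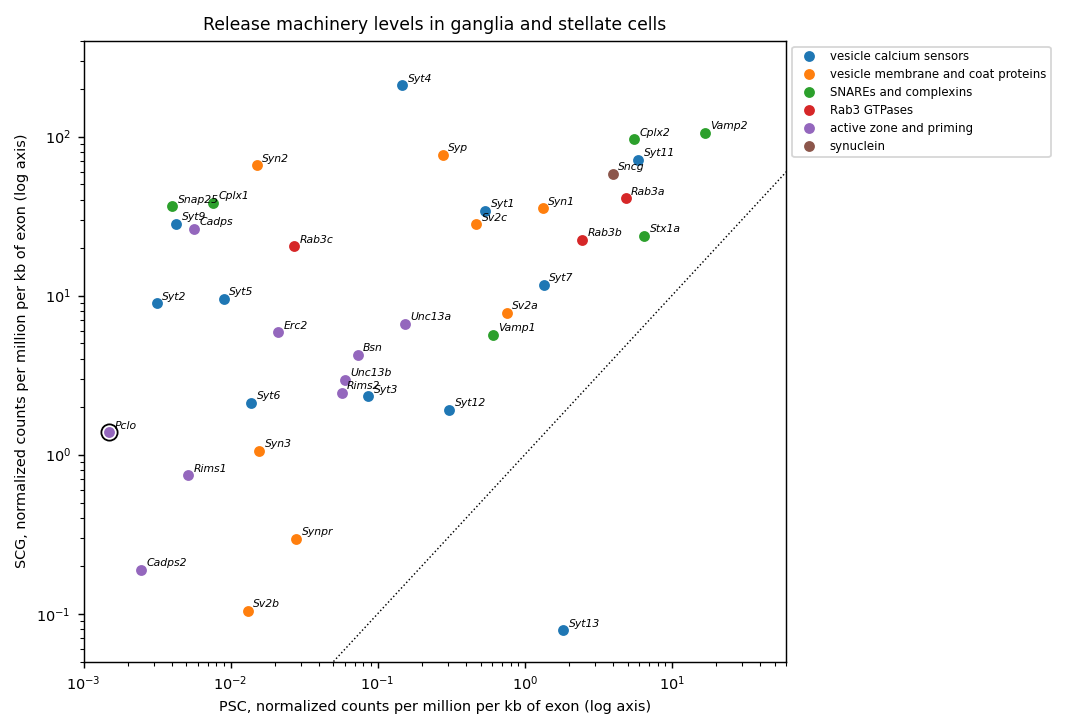
Mean level of each member in SCG (vertical) and in PSC (horizontal), in CPM per kb of exon on log axes, coloured by role, with a dotted line of equality. Only Syt13 lies below the line; the circled Pclo had no count in PSC and is drawn at the left edge.

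In PSC+SCG against PSC, 31 of the 38 members had enough counts to be tested, and 0 of 31 were called, as were 0% of 21273 genes. With the replicate block 0.461% of genes and again 0 members were called. The median member fold change was 0.05 (range -1.15 to 0.76) beside -0.01 over all genes, and it was -0.06 without PSC replicate 3. Leaving out replicate 1 or 2 of PSC+SCG gave -0.04 or -0.05 in turn. At an unadjusted p under 0.05 there was 1 member, beside 1.92% of all genes, and with the block the same 1, beside 8.37%. That was Rims2, an active zone scaffold that binds Rab3, with 21.1, 28.4 and 20.2 normalized counts in PSC and 13.8, 13.8 and 6.38 in PSC+SCG. Every PSC+SCG library lay below every PSC library, as in 5.6% of genes, and the log2 fold change of -1.03 ± 0.45 had a limma adjusted p of 1 without the block and 0.423 with it, and it was -0.69 ± 0.42 without PSC+SCG replicate 3. The abundant members kept narrow intervals: with the block the log2 fold change of Cplx2 was 0.03 (95% interval -0.20 to 0.27) and that of Vamp2 0.11 (-0.10 to 0.33).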

How the data were processed

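Bulk RNA-seq was deposited for 10 nerve and 6 stellate cell libraries. Reads were aligned by the authors with STAR 2.7.10b to GRCm39 with GENCODE M33, counted by gene and strand, and divided by DESeq2 1.38.3 size factors in R 4.2.2, as the study's methods and the submitters' processing notes state. The deposited values are therefore a signal, normalized counts, in 2 tables scaled separately, and comparisons were made within a table. All 16 deposited columns were used and 0 were left out.

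The members and the gene lists were chosen with earlier results of these data known. In R 4.3.3, limma 3.58.1 with an intensity trend was fitted to log2(normalized count + 1) for genes whose values summed to at least 10 over the libraries, with all nerve groups in 1 model. Whole reads were recovered from the steps between low values in 9 nerve libraries, where 100% of values above 0 lay within 0.1 of a whole read, and were tested with edgeR 4.0.16 and DESeq2 1.42.0. SCG+PSC replicate 4 did not give whole reads. Only the limma fits, and not edgeR or DESeq2, were checked on simulated data. The simulated libraries held no replicate effect, so the check does not cover the spread by replicate number seen here. A count of 0 was given a limit of 3 reads. Exon lengths and gene coordinates come from a later GENCODE annotation of GRCm39, and start-site windows from RefSeq.

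Same-numbered libraries were taken as pairs from the data, since the deviations of every pair from the group means correlated above 0.1 across genes. Their r ran from 0.135 to 0.382 in the nerve libraries and from 0.231 to 0.475 in the stellate libraries. The highest r with another number ran from -0.154 to -0.00365 in the nerve and from -0.197 to 0.121 in the stellate libraries. The cut of 0.1 alone thus did not separate the stellate pairs, although each library correlated best with its own number. The study's batch dates are tied to no library in the sources used here, so no batch term was fitted.

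Values in every library are given for each member past the threshold and, for each role with none, for the member with the highest mean count in the nerve libraries. Genes of other lists are named where past the threshold, at most 4 for a list, those with the largest fold change, with Slc18a2 in any case. A gene that the rule names in any case is not reported here. Alternatives were the replicate block, pseudocounts of 0.5 and 8, no filter on low values or a stricter filter (10 or more in 3 or more libraries), quantile normalization, the adjusted p alone, values relative to the pan-neuronal mean, all 4 SCG+PSC libraries, the 2 groups compared only, the count tests, and each library left out in turn.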

Additional observations from a re-analysis of the deposited data

Results flagged for a closer look

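Of the 38 members in the 4 SCG+PSC libraries, 2 had a library whose gap to its nearest neighbour exceeded Dixon's 95% critical value. Chance sets apart about 5% of such groups, and both cases fell in SCG+PSC replicate 2. Syt2, a calcium sensor, had 2145 normalized counts there, against up to 3119 in the other libraries, and the gap took 0.935 of the whole range. Syn1, a synapsin, had 3639 there, against up to 5257, and the gap took 0.976 of the range. The pan-neuronal mean was also lowest in that library among the 4, at 12.50 on the log2 scale, and its part in these values was not tested.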

How the results depend on the processing

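No member was called in any of 79 alternative counts, and the replicate block changed no member call in the 4 comparisons. The block did change the calls over all genes tested, from 3 to 313 in SCG+PSC against SCG, from 3 to 38 in SCG+MEF against SCG, from 0 to 185 in SCG+PSC against SCG+MEF and from 0 to 98 in PSC+SCG against PSC. With each library left out in turn, the median log2 fold change of the members ran from -0.32 to 0.19, from -0.14 to 0.35, from -0.33 to 0.02 and from -0.06 to 0.15 in that order. It changed sign in the first without SCG replicate 3 (0.19) or SCG+PSC replicate 2 (0.12), in the second without SCG replicate 2 (-0.14) or SCG+MEF replicate 3 (-0.04), in the third without SCG+PSC replicate 2 (0.02), and in the last without PSC replicate 3 (-0.06) or PSC+SCG replicate 1 (-0.04) or 2 (-0.05). Relative to the pan-neuronal mean the medians of the nerve comparisons were -0.08, -0.005 and -0.05, on a scale that moved the medians of all genes to -0.02, -0.11 and 0.10. Of 938 fold changes of 12 named members under alternatives, 73 changed sign, 60 of them among the 391 with a library left out. The cause was not tested. With 3 libraries a group, the median 95% interval of a member reached 0.673 on the log2 scale to either side without the block. That interval is not adjusted for the 23491 genes tested. Smaller shifts, and some larger ones, could thus go uncalled in that fit, as did Synpr at -0.93 in SCG+PSC against SCG.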

Other observations

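The noradrenergic genes, which make, store and take back the transmitter, ordered the libraries much as the release genes did. The mean log2 level of 16 such genes was 12.29, 11.51 and 12.88 in SCG replicates 1 to 3, 12.43, 12.05 and 12.81 in SCG+MEF, and 12.21, 11.74, 12.51 and 12.44 in SCG+PSC replicates 1 to 4. In SCG+PSC against SCG+MEF their median log2 fold change was -0.28, with 0 of 16 positive, beside -0.01 over all genes, and limma called 0 of 16 with or without the block.

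The other cells of the explants gave smaller or differently ordered values. The mean log2 level of 15 satellite glia and Schwann cell genes lay between 11.88 and 12.33 over the 10 nerve libraries, that of 15 macrophage genes between 9.216 and 9.766, and that of 10 endothelial genes between 7.377 and 8.502. Their median log2 fold changes in SCG+PSC against SCG were -0.04, -0.09 and 0.62, with 0 called without the block. With the block limma called 1.33% of all genes in SCG+PSC against SCG. Among them were Mrc1, a macrophage receptor, 1 of 15 and higher, and the fibroblast genes Lum, Fbln1 and Mgp, 2 of 12 higher and 1 lower. In SCG+MEF against SCG, where 0.162% of all genes were called, the glial genes Fabp7 and Kcnj10 were lower, 2 of 15. The fibroblast genes Dcn and Lum were higher there, 2 of 12. In SCG+PSC against SCG+MEF limma with the block called 0.788% of all genes. They included the glial genes Fabp7, Kcnj10 and Gfra3, 2 of 15 higher and 1 lower, and the fibroblast gene Lum, 1 of 12 and lower. In PSC+SCG against PSC the block called 1 of 15 pan-neuronal genes tested, beside 0.461% of all genes. It was Nsg1, an endosomal protein, and it was called higher.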
